A study of Mus musculus with 12 samples.

Results

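The thioredoxin, peroxiredoxin and glutathione peroxidase systems remove hydrogen peroxide and lipid peroxides and repair oxidized thiols, and 10 of their genes were followed here in the mouse liver. The members were chosen by symbol as the rows Txnrd1, Srxn1, Txn1, Prdx1, Prdx5, Prdx6, Gpx1, Gpx2, Gpx3 and Gpx4 of the count table, which lists 24411 genes. All 10 members were among the 13922 genes with enough counts to be tested. The study asked how the retention of KEAP1 in p62 bodies acts on the liver when autophagy is blocked. Poly(A) RNA of whole liver was sequenced from 3 mice of each of 3 genotypes, at 3 months of age and on a C57BL/6 background. The control mice (cont.) were Atg7flox/flox, with loxP sites in both copies of the autophagy gene Atg7 and no Cre. The Atg7-KO mice were Atg7flox/flox;Alb-Cre, in which the albumin promoter drives Cre in hepatocytes. Whether other liver cells kept Atg7 was not measured here. The Atg7-KO;p62T352A mice carried the same alleles and in addition a homozygous knock-in in the endogenous p62 gene (Sqstm1) that replaces a threonine in the KEAP1-binding stretch by alanine. All 9 mice therefore shared the floxed Atg7 alleles, and no knock-in mouse with intact Atg7 entered the comparisons.

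As background, thioredoxin reductase passes electrons from NADPH to thioredoxin, and thioredoxin in turn reduces peroxiredoxins, whose cysteine is oxidized by each peroxide they remove. Sulfiredoxin rescues peroxiredoxins that have been oxidized too far. Glutathione peroxidases do the same work with glutathione as the electron donor. Several of these genes are known targets of NRF2, the transcription factor that KEAP1 marks for degradation and that is set free when KEAP1 is held by p62.

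The labels were checked on the targeted gene. Atg7 stood at 46.4, 44.2 and 55.4 counts per 1000000 after normalization (normalized CPM) in the control mice. It stood at 10.1, 9.57 and 12.0 in Atg7-KO mice and at 29.7, 27.4 and 29.5 in Atg7-KO;p62T352A mice. The genotypes did not overlap, and the level in Atg7-KO;p62T352A mice lay between the others. It was 2.73-fold higher than in Atg7-KO mice, so the 2 genotypes with Alb-Cre also differed in the mRNA of the targeted gene. The part of this difference in their comparisons was not tested. Total counts per mouse ran from 9671073 to 23285134. The mice numbered 1 had 7 to 28 counts of Xist, an RNA made from the inactive X chromosome, against 8578 to 18335 in the other mice, in every genotype alike. Mouse 1 of cont. stood apart from the other 8 libraries on the second principal component, at 94.5 against -48.9 to 16.1. Calls and counts that turn on it are given with and without it. The summed CPM of 8 hepatocyte markers ran from 81186 to 133230 in cont. mice, from 37959 to 40581 in Atg7-KO mice and from 113420 to 130980 in Atg7-KO;p62T352A mice. In bulk liver, fewer cells of a type and less RNA per cell cannot be told apart.

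The members fall into enzymes that carry a selenocysteine and enzymes that do not. Selenocysteine is written into the mRNA as TGA, a codon that otherwise ends translation. Of the 10 coding sequences, 5 hold an in-frame TGA before their end, and the annotation marks each of the 5 as selenocysteine. They are shown because all 4 members called higher in Atg7-KO other than Srxn1 are among them. This choice was made with the calls known. Among the 16 other selenoproteins tested, described below, 2 rose and 4 fell in Atg7-KO mice, with a median log2 fold change of -0.34. The shares of all genes tested were 21.6% and 22.1%. Whether selenocysteine has a part in the rises of the members was not tested. The sequences are from the reference mouse genome GRCm38 with GENCODE vM21, the capitals mark the TGA, and each lies in a coding exon. The glutathione peroxidases carry it in their amino-terminal part or middle, Gpx1 at codon 47 (chr9:108339439-108339465, plus strand, exon 1), Gpx2 at codon 40 (chr12:76795244-76795270, minus strand, exon 1), Gpx3 at codon 73 (chr11:54907244-54907270, plus strand, exon 2) and Gpx4 at codon 129 of its longest form (chr10:80054725-80054751, plus strand, exon 3). Txnrd1 carries it at codon 612 of 613, next to the end (chr10:82896025-82896042, plus strand, exon 15).
Gpx1: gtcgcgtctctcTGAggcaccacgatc
Gpx2: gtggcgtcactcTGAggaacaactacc
Gpx3: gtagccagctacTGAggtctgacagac
Gpx4: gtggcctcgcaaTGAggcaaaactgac
Txnrd1: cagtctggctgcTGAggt
The coding sequences of Srxn1, Txn1, Prdx1, Prdx5 and Prdx6 hold 0 such codons. Gpx1 belongs to the first set by its codon but not by its values below.

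A gene was called where edgeR's quasi-likelihood test gave a false discovery rate (FDR, Benjamini-Hochberg over the 13922 genes) under 0.05 with a fold change over 1.5. In Atg7-KO against cont. mice, 5 of the 10 members rose, namely Txnrd1, Srxn1, Gpx2, Gpx3 and Gpx4. Over all genes tested, 21.6% passed in that direction and 22.1% in the opposite one. Where at least 10 counts in every mouse were required, which leaves Gpx2 out, 4 members rose. Without cont. mouse 1 the number was 6, with Prdx1 added. Of the members, 0 fell, and 0 were lower at an unadjusted p under 0.05 or by DESeq2. The median log2 fold change of the members was 1.06 (0.74 without Gpx2, whose control counts are near 0), against -0.03 over all genes tested. The members were chosen with earlier results of these data known, so the comparisons with all genes are a description and no test. In Atg7-KO;p62T352A against Atg7-KO mice, 6 members fell, the same 5 and Prdx1, with 26.2% of all genes called lower and 24.7% higher. With Gpx2 left out in the same way, 5 fell. Of the members, 0 rose in that comparison, at an unadjusted p under 0.05 and by DESeq2 as well, and their median log2 fold change was -0.82 (-0.62 without Gpx2). These comparisons share the Atg7-KO mice. In Atg7-KO;p62T352A against cont. mice, 3 members were higher, Txn1, Gpx3 and Gpx4, against 6.25% of all genes. The count of 3 was 4 without cont. mouse 1, with Srxn1 added. It was 0 without cont. mouse 2 or without Atg7-KO;p62T352A mouse 3, and 1 without mouse 1 or 2 of Atg7-KO;p62T352A or without any of the Atg7-KO mice, which enter through the shared estimate of the spread. In the lower direction the count was 0, at an unadjusted p under 0.05 and by DESeq2 as well, against 5.34% of all genes.

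**Figure D1:**
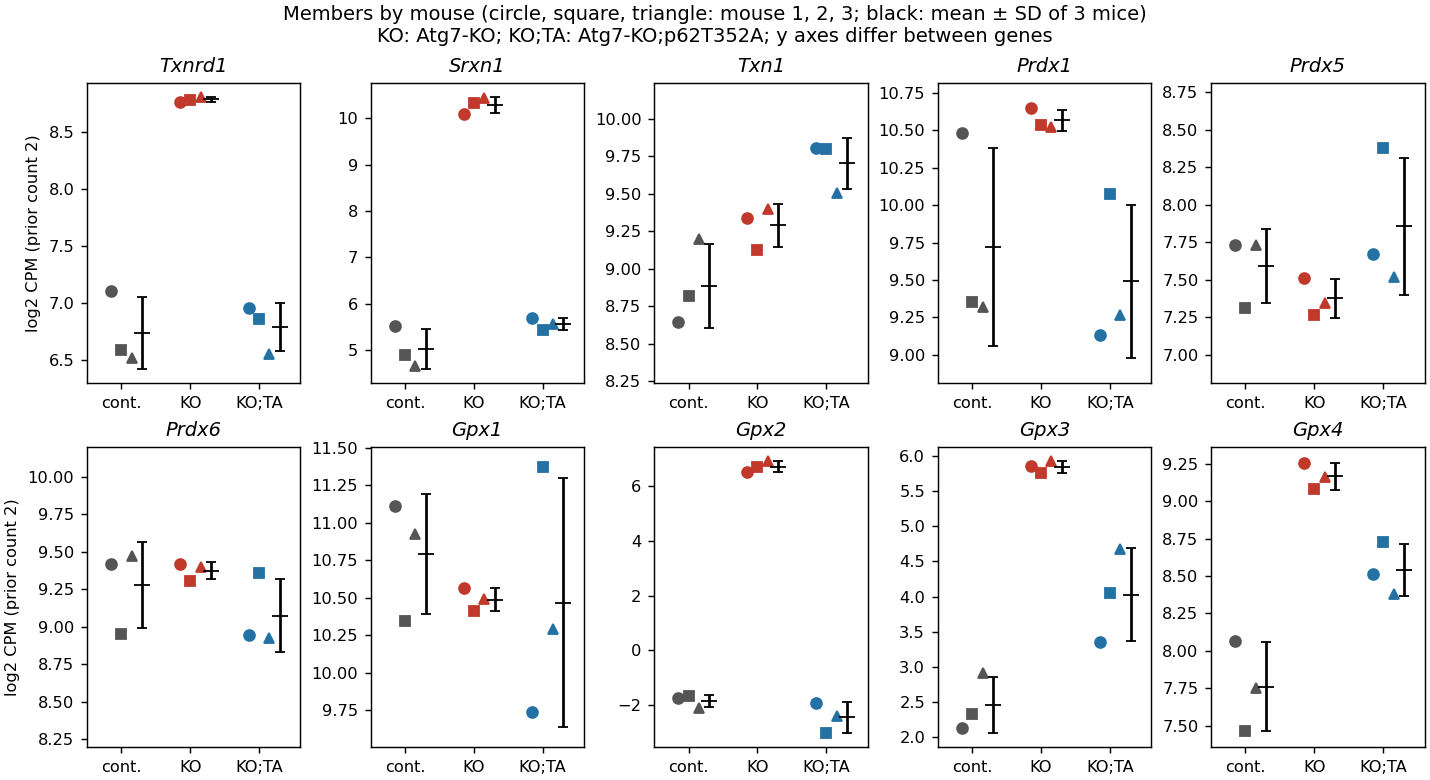
Log2 CPM (prior count 2) of the 10 members in each of the 9 mice, by genotype, with the mean ± SD of 3 mice in black. Txnrd1, Srxn1, Gpx2, Gpx3 and Gpx4 are higher in every Atg7-KO mouse than in every other mouse, and so is Prdx1, by a narrow margin over mouse 1 of cont. Prdx6 and Gpx1 overlap among all genotypes.

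Txnrd1 encodes cytosolic thioredoxin reductase (chr10:82833951-82897712, plus strand). Its normalized CPM were 137, 96.4 and 91.8 in cont. mice, 434, 439.5 and 447 in Atg7-KO mice, and 124, 116 and 94.1 in Atg7-KO;p62T352A mice. The Atg7-KO mice lay above all others, and the remaining groups overlapped. Txnrd1 was 4.06-fold higher in Atg7-KO than in control mice (log2 fold change 2.02, SE 0.21, FDR = 0.000107). It was 3.95-fold lower in Atg7-KO;p62T352A than in Atg7-KO mice (FDR = 0.000114). Between Atg7-KO;p62T352A and cont. mice the log2 difference was 0.04, with a 95% interval from -0.41 to 0.49 (FDR = 0.926). It was 0.25 or nearer to 0 in the 18 alternatives that were tallied gene by gene, which are each of 9 mice left out and 9 other fits, without glmTreat and without FDR alone. In these its sign changed with the scaling. RefSeq gives 3 start sites for Txnrd1 on GRCm38.p6. The window of 1 of them held a match to TGACNNNGC, searched on both strands. These are core letters of the antioxidant response element, the motif bound by NRF2 with small MAF proteins. Of 32851 mouse windows, 12.4% held them, and binding was not tested. The match begins 92 bases upstream of a start inside the gene, outside its annotated exons and on the strand opposite to transcription. It is shown with its flanks, with the match in capitals, read on the plus strand (chr10:82859094-82859142).
Txnrd1 promoter: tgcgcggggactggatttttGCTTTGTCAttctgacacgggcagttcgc

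Txn1 encodes the cytosolic thioredoxin that Txnrd1 reduces (chr4:57943373-57956411, minus strand). Its normalized CPM were 399, 452 and 586 in cont. mice, 647, 559 and 675 in Atg7-KO mice, and 893, 892 and 727 in Atg7-KO;p62T352A mice. The highest cont. mouse reached into the Atg7-KO range, and the Atg7-KO;p62T352A mice lay above both other groups. In Atg7-KO against cont. mice the log2 fold change was 0.39, with a 95% interval from -0.07 to 0.85, and was not called (FDR = 0.146). Between Atg7-KO;p62T352A and Atg7-KO mice it was 0.42 (FDR = 0.111). Txn1 rose 1.75-fold from cont. to Atg7-KO;p62T352A (log2 fold change 0.81, SE 0.21, FDR = 0.0349), a call that 9 of 18 alternatives kept. It was lost without cont. mouse 2 (0.71, FDR = 0.109), without any of the Atg7-KO or Atg7-KO;p62T352A mice (0.76 to 0.90, FDR from 0.0685 to 0.0899) and with the mice numbered 2 and 3 alone (0.64, FDR = 0.0823). With a replicate block it was 0.82 (FDR = 0.0672), and with glmTreat, which tests against a fold change of 1.5, the FDR was 0.421. The substrate thus had its highest values in the genotype in which its reductase stood at the cont. level.

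Srxn1 encodes sulfiredoxin, which reduces overoxidized peroxiredoxins (chr2:152105516-152111376, plus strand). Its normalized CPM were 45.8, 29.8 and 25.4 in cont. mice, 1087, 1281 and 1388 in Atg7-KO mice, and 51.9, 43.5 and 47.3 in Atg7-KO;p62T352A mice. The lowest Atg7-KO mouse stood far above the highest of the others, while the 2 lower cont. mice lay below every Atg7-KO;p62T352A mouse. Srxn1 was 37.1-fold higher in Atg7-KO than in control mice (log2 fold change 5.21, SE 0.28, FDR = 8.76e-06). It was 26.3-fold lower in Atg7-KO;p62T352A than in Atg7-KO mice (FDR = 1.83e-05). For Atg7-KO;p62T352A against cont. mice the log2 fold change was 0.50, with a 95% interval from -0.04 to 1.03 (FDR = 0.209). Without cont. mouse 1 it was 0.79 and called (FDR = 0.0128).

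Prdx1, Prdx5 and Prdx6 encode peroxiredoxins, Prdx1 in the cytosol, Prdx5 in mitochondria, peroxisomes and cytosol, and Prdx6 a form that takes its electrons from glutathione and can reduce phospholipid peroxides. Prdx1 (chr4:116685544-116700822, plus strand) stood at 1431, 655 and 638 normalized CPM in cont. mice. It stood at 1605, 1481 and 1468 in Atg7-KO mice and at 560.2, 1078 and 615 in Atg7-KO;p62T352A mice. The Atg7-KO mice lay above all others, but mouse 1 of cont. nearly reached them and mouse 2 of Atg7-KO;p62T352A stood apart from its group. The log2 fold change in Atg7-KO against cont. mice was 0.74 (SE 0.36), with a 95% interval from -0.06 to 1.55, and was not called (FDR = 0.117). Without cont. mouse 1 it was 1.23 and called (FDR = 0.00383), and with the mice numbered 2 and 3 alone it was 1.19 and called (FDR = 0.00795). Prdx1 was 2.02-fold lower in Atg7-KO;p62T352A than in Atg7-KO mice (log2 fold change -1.01, SE 0.36, FDR = 0.0378), a call kept in 13 of 18 alternatives. It was lost without any of the Atg7-KO mice and without mouse 1 or 3 of Atg7-KO;p62T352A, at log2 fold changes from -1.04 to -0.84 (FDR from 0.0777 to 0.127), and with glmTreat (FDR = 0.128). Of the stretches of 75 bases in the transcripts of Prdx1, 4.03% occur in other annotated genes, with most matches in Gm21399 and Gm7204, so that some of its reads could be split.

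Prdx5 (chr19:6906697-6910106, minus strand) had 213, 158 and 212 normalized CPM in cont. mice, 183, 153 and 163 in Atg7-KO mice, and 204, 332 and 183 in Atg7-KO;p62T352A mice. The groups overlapped except that every Atg7-KO;p62T352A mouse lay, by a narrow margin, above the Atg7-KO mice. The log2 fold changes were -0.23 in Atg7-KO against cont. mice (95% interval -0.78 to 0.32, FDR = 0.474) and 0.53 in Atg7-KO;p62T352A against Atg7-KO mice (FDR = 0.0954). Prdx6 (chr1:161240112-161251219, minus strand) had 685, 495.0 and 709 normalized CPM in cont. mice, 684, 634 and 675 in Atg7-KO mice, and 492, 656 and 486 in Atg7-KO;p62T352A mice. All groups overlapped. Its log2 fold change in Atg7-KO against cont. mice was 0.08, with a 95% interval from -0.39 to 0.54 (FDR = 0.782), so that a rise like that of Txnrd1 lay outside the interval. Neither Prdx5 nor Prdx6 was called in any comparison under any of the 18 alternatives.

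RefSeq promoter windows, from 250 bases before to 50 bases after each start, exist for 9 members. They number 14, of which Txnrd1 has 3 and Gpx4 has 4. The only window of Srxn1 and that of Prdx1 also held TGACNNNGC. The motif was in 12.4% of 32851 mouse windows, a share per window and not per gene. Both matches lie on the strand opposite to transcription and are printed as the plus strand of GRCm38.p6 with the match in capitals. The Prdx1 match begins 133 bases upstream of the start, outside the gene (chr4:116685446-116685494), and is also an instance of TGACTCAGC, which 0.454% of windows held. The Srxn1 match begins 28 bases downstream of the start, in an exon (chr2:152105542-152105570).
Prdx1 promoter: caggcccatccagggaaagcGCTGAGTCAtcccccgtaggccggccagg
Srxn1 start region: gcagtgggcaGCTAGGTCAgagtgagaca
The windows of Txn1, Prdx5, Gpx1, Gpx2, Gpx3 and Gpx4 did not contain these letters, and Prdx6 was not searched.

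Gpx2 encodes a cytosolic glutathione peroxidase best known from the lining of the gut (chr12:76792333-76795554, minus strand). Its raw counts were 3, 2 and 1 in cont. mice, 1890, 2567 and 2872 in Atg7-KO mice, and 2, 0 and 1 in Atg7-KO;p62T352A mice. The mRNA was thus near the detection limit outside the Atg7-KO genotype, where it reached 91.4, 105 and 123 normalized CPM. The depth-adjusted ratio of summed counts in Atg7-KO to cont. mice was 662, with a 95% interval from 304 to 1806 that covers counting error only (7329 counts against 6). Against Atg7-KO;p62T352A mice, with 3 counts in all, the ratio was 1556, with an interval from 532 to 7547. Gpx2 passed the filter on low counts through the Atg7-KO mice alone. Its FDR of 3.63e-06 and 4.11e-06 in these comparisons therefore adds no support beyond the counts themselves. Atg7-KO;p62T352A and cont. mice could not be compared at so few counts. The pseudogene Gpx2-ps1 shares 3.17% of the 75-base stretches of Gpx2.

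Gpx3 encodes the secreted glutathione peroxidase of blood plasma (chr11:54902453-54910377, plus strand). Its normalized CPM were 4.24, 4.92 and 7.36 in cont. mice, 58.1, 54.0 and 60.7 in Atg7-KO mice, and 10.1, 16.4 and 25.5 in Atg7-KO;p62T352A mice. The 3 genotypes did not overlap, with Atg7-KO;p62T352A in the middle. Gpx3 was 10.6-fold higher in Atg7-KO than in control mice (log2 fold change 3.40, SE 0.35, FDR = 0.000101). It was 3.33-fold lower in Atg7-KO;p62T352A than in Atg7-KO mice (FDR = 0.00171). It was still 3.17-fold higher in Atg7-KO;p62T352A than in control mice (log2 fold change 1.67, SE 0.33, FDR = 0.0157), a call kept in 16 of 18 alternatives. Without cont. mouse 2 it was 1.54 (FDR = 0.0561), and without Atg7-KO;p62T352A mouse 3 it was 1.28 (FDR = 0.0537). With glmTreat the FDR was 0.0736.

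Gpx4 encodes the phospholipid hydroperoxide glutathione peroxidase that protects membranes and restrains ferroptosis (chr10:80047166-80056439, plus strand). Its normalized CPM were 268, 177 and 215 in cont. mice, 611, 541 and 572 in Atg7-KO mice, and 366, 423 and 333 in Atg7-KO;p62T352A mice. As for Gpx3, the 3 genotypes did not overlap and Atg7-KO;p62T352A mice were in the middle. Gpx4 was 2.61-fold higher in Atg7-KO than in control mice (log2 fold change 1.38, SE 0.20, FDR = 0.000649). It was 1.54-fold lower in Atg7-KO;p62T352A than in Atg7-KO mice (log2 fold change -0.62, FDR = 0.0257), a call kept in 12 of 18 alternatives. It was lost without any of the Atg7-KO mice and without mouse 1 or 3 of Atg7-KO;p62T352A, at -0.66 to -0.54 (FDR from 0.0578 to 0.0939), and with the mice numbered 2 and 3 alone the fold change was under 1.5 (-0.56). With glmTreat the FDR was 0.363. It was 1.70-fold higher in Atg7-KO;p62T352A than in control mice (log2 fold change 0.76, SE 0.20, FDR = 0.0385), which 6 of 18 alternatives kept. It was lost when any mouse other than cont. mouse 1 was left out, at 0.56 to 0.84 (FDR from 0.0724 to 0.170), and with a replicate block it was 0.78 (FDR = 0.0672). The call was also lost with DESeq2 size factors in edgeR (FDR = 0.0631), with upper-quartile scaling (FDR = 0.0527) and with no filter (FDR = 0.0639). With glmTreat the FDR was 0.485. Of the 75-base stretches of Gpx4, 29.8% occur in other annotated genes. Most matches were in Gpx4-ps2 and AC122253.3, which have no row in the table, so that its level is uncertain where reads could belong to such copies.

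Gpx1 encodes the main cytosolic glutathione peroxidase of the liver (chr9:108338903-108340343, plus strand). Its normalized CPM were 2211, 1299 and 1948 in cont. mice, 1514, 1359 and 1438 in Atg7-KO mice, and 854, 2653 and 1255 in Atg7-KO;p62T352A mice. The groups overlapped, and the lowest and the highest value of all 9 mice came from the same genotype. Its log2 fold change in Atg7-KO against cont. mice was -0.34, with a 95% interval from -1.20 to 0.52 (FDR = 0.491). In Atg7-KO;p62T352A against cont. mice it was -0.20 (FDR = 0.782), and it was 0.10 without mouse 1 of Atg7-KO;p62T352A. Gpx1 was not called in any comparison under any of the 18 alternatives.

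**Figure D2:**
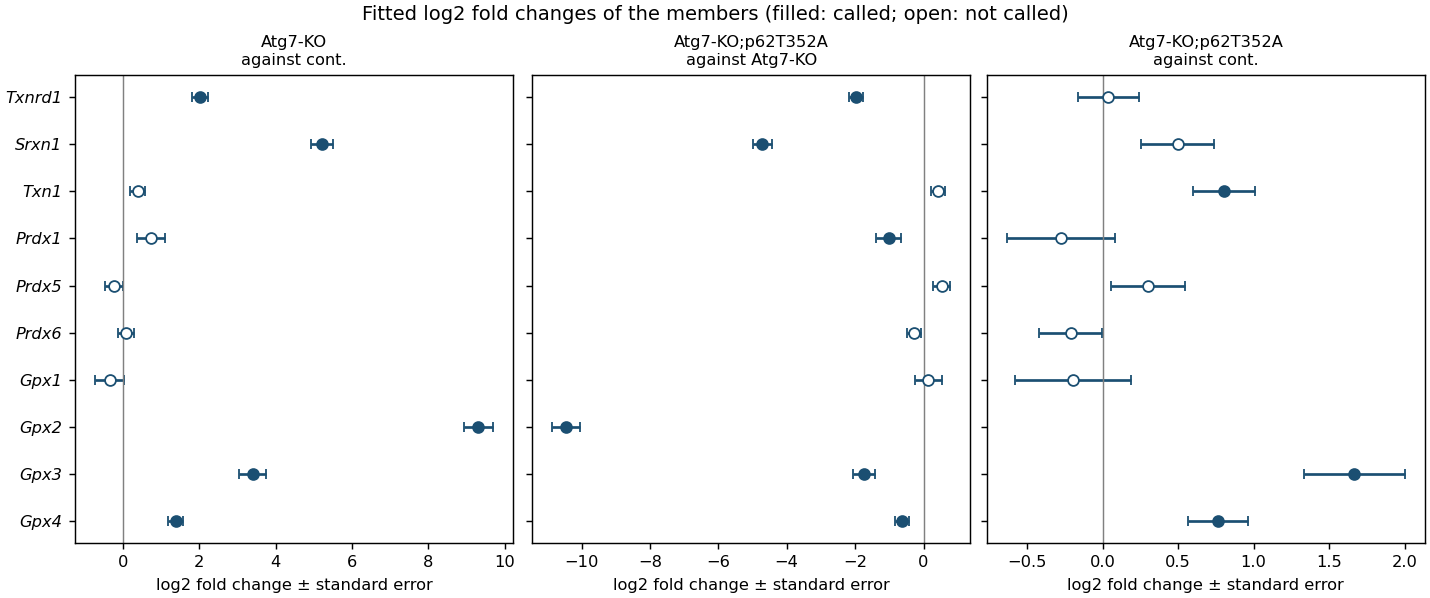
Fitted log2 fold changes ± standard error of the 10 members in the 3 comparisons, with called members filled and the horizontal scales differing between panels. Txnrd1 and Srxn1 are called in the left and middle panels and open in the right one, whereas Gpx3 and Gpx4 are called in all 3. Gpx2 is left out on the right, where both genotypes have at most 3 counts per mouse.

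On the log2 CPM scale, the mean of Atg7-KO;p62T352A mice kept 2.61% of the Atg7-KO difference from cont. mice for Txnrd1 and 10.3% for Srxn1. It kept 46.2% for Gpx3, from 26.4% to 65.5% in single mice, and 55.4% for Gpx4, from 44.0% to 68.6%. The highest Srxn1 mouse stood at 12.7%, below every Gpx3 and Gpx4 mouse. Markers of other liver cells also differed between genotypes. The summed CPM of 8 cholangiocyte markers ran from 33.5 to 51.6 in cont. mice, from 836 to 1030 in Atg7-KO mice and from 181 to 267 in Atg7-KO;p62T352A mice. Most of that sum was Spp1, at means of 33.8, 871 and 172, whereas Sox9 stood at 4.87, 25.7 and 30.8. Of 7 such markers tested, 6 rose from cont. to Atg7-KO and 3 from cont. to Atg7-KO;p62T352A. The 8 stellate cell and fibroblast markers summed to between 215 and 273, 959 and 1159, and 338 and 609 CPM in the same order. All 8 were called higher in Atg7-KO and 3 in Atg7-KO;p62T352A against cont. mice. Both sums were ordered across the genotypes like Gpx3 and Gpx4, but not every marker was. Besides Sox9, the means of Lrat (19.0, 49.0 and 16.5 CPM), Pdgfrb (11.8, 26.2 and 11.0) and Acta2 (4.79, 9.20 and 4.79) did not have Atg7-KO;p62T352A in the middle. The means of the other markers of both lists did, that of Dcn barely (162, 285 and 283). The 8 macrophage markers summed to between 294 and 399, 1214 and 1297, and 216 and 456 CPM, with 6 called higher and 1 lower in Atg7-KO. No marker of these lists was at 0 throughout a genotype. The part of other cell types in the member values was not tested.

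Per kilobase of transcript, Gpx1 had the highest mean of the members in all 3 genotypes. The order can depend on the transcript taken for each gene, from 755 bases for Prdx5 to 3622 for Txnrd1. Which forms the liver makes was not examined. In cont. mice Gpx1 stood at a mean of 1697 normalized CPM per kilobase, followed by Txn1 at 456, Prdx1 at 396, Prdx6 at 264, Prdx5 at 258 and Gpx4 at 221. From Txn1 to Gpx4 each gene overlapped the next over the 3 mice. Below them came Txnrd1 at 30.0, Srxn1 at 12.0, Gpx3 at 3.46 and Gpx2 at 0.147, each apart from its neighbours. The members with the largest rises in Atg7-KO mice were thus the ones with the lowest levels in cont. mice. In Atg7-KO mice Srxn1 moved to rank 5 at 445 CPM per kilobase, above Prdx6 at 278 and Prdx5 at 220.2, without overlap. Gpx2 reached 99.8 and stood above Gpx3 at 36.2, the reverse of their order in the other genotypes. Prdx1 at 662, Txn1 at 597 and Gpx4 at 578 overlapped one after the other. In Atg7-KO;p62T352A mice Gpx1 at 1481 overlapped Txn1 at 797. Gpx4 stood at rank 3 there at 376 and overlapped Prdx1 at 328, and Srxn1 at 16.9 overlapped Gpx3 at 10.9.

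**Figure D3:**
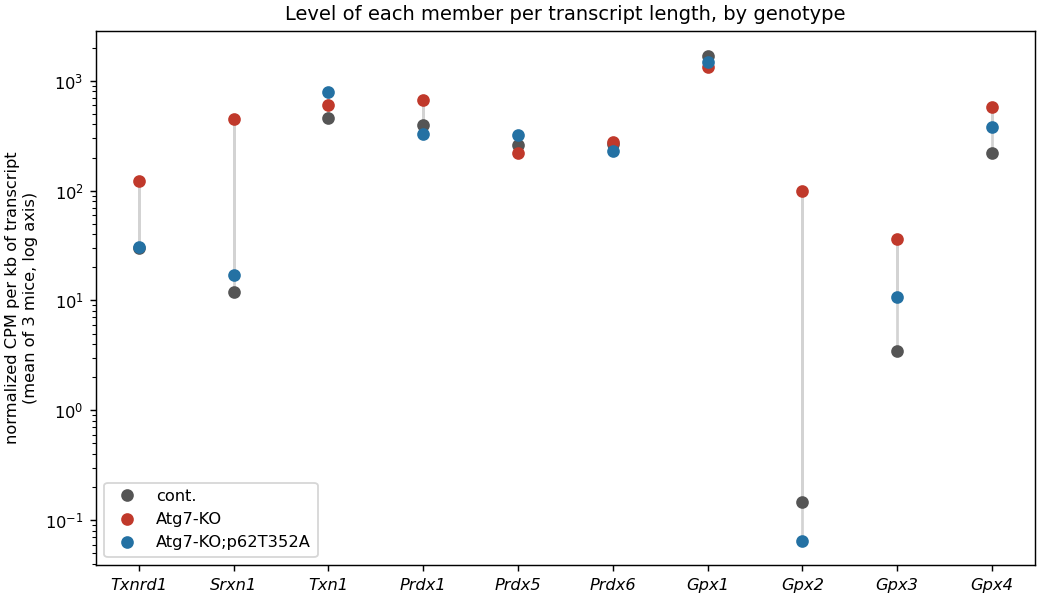
Mean normalized CPM per kilobase of transcript of each member (log axis), with 1 point per genotype. Srxn1 and Gpx2 span the widest range, Gpx2 from 0.065 in Atg7-KO;p62T352A to 99.8 in Atg7-KO mice, and the points of Prdx6 lie close together.

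Together the members took 0.321% to 0.417% of all raw counts in cont. mice, 0.870% to 0.924% in Atg7-KO mice and 0.303% to 0.511% in Atg7-KO;p62T352A mice. These shares are not scaled by TMM, unlike the normalized CPM. The TMM factors ran from 0.750 to 0.953 in cont. mice, from 1.28 to 1.32 in Atg7-KO mice and from 0.823 to 0.951 in Atg7-KO;p62T352A mice. The raw shares therefore overstate the difference of Atg7-KO mice relative to the normalized scale. Among Atg7-KO mice the coefficient of variation of normalized CPM ran from 1.46% for Txnrd1 to 14.6% for Gpx2. In cont. mice it ran from 16.0% for Prdx5 to 49.8% for Prdx1. In Atg7-KO;p62T352A mice it ran from 8.86% for Srxn1 to 59.5% for Gpx1, leaving out Gpx2 with its 3 counts. Srxn1 varied more among Atg7-KO mice, at 12.2%, than among these. Mouse 2 of this genotype was the highest of its group for 5 members, Prdx1, Prdx5, Prdx6, Gpx1 and Gpx4. Mouse 1 of cont. was the highest of its group for 6 members, Txnrd1, Srxn1, Prdx1, Prdx5, Gpx1 and Gpx4. 

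The genes whose log2 CPM followed a member most closely over the 9 mice were found among 12810 genes. The mice form separate groups by genotype, so the Pearson r below mainly reflects genotype differences and is given as a description. For Srxn1 they were Pgd (0.997), an NADPH-producing enzyme of the pentose phosphate pathway, Abhd4 (0.997) and Itgb2 (0.996). For Txnrd1 they were Gskip (0.995), Tpd52 (0.995) and G6pdx (0.994), the entry enzyme of that pathway. For Gpx2 they were Smpdl3b (0.996), Slc22a12 (0.994) and the carbonyl reductase Cbr3 (0.994). For Gpx3 they were Spint1 (0.992), Oas1a (0.991) and Cd63 (0.991).

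Other genes of the thioredoxin system moved in both directions. Of 17 tested, 4 rose and 2 fell from cont. to Atg7-KO, against 21.6% and 22.1% of all genes, with a median log2 fold change of 0.37. The rises numbered 9 without cont. mouse 1, 2 without cont. mouse 2, 1 without mouse 1 of Atg7-KO, 2 without its mouse 2 or its mouse 3, and 0 with glmTreat. The falls numbered 1 without mouse 1 or mouse 2 of Atg7-KO and 1 with glmTreat. Txnrd2, the mitochondrial thioredoxin reductase, fell by 1.41 on the log2 scale (FDR = 0.000247), opposite to Txnrd1. Its mean normalized CPM was 37.4 ± 7.16 (SD) in cont. mice, 14.0 ± 0.285 in Atg7-KO mice and 35.6 ± 1.86 with the knock-in. Txndc11 fell by 0.76, and Txndc16 and nucleoredoxin (Nxn) rose by 0.92 and 0.86. In Atg7-KO;p62T352A against Atg7-KO mice, 3 were higher and 5 lower, against 24.7% and 26.2% of all genes.

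Of 13 other peroxide and superoxide enzymes tested, 5 rose and 3 fell from cont. to Atg7-KO, against 21.6% and 22.1% of all genes. The rises numbered 3 without cont. mouse 2. The largest rises were those of Gpx7 (log2 fold change 2.34, FDR = 0.00852), a glutathione peroxidase of the endoplasmic reticulum, and of the stress-responsive sestrin Sesn2 (1.80, FDR = 0.000166). The largest falls were those of Gpx6 (-2.69), at under 2 CPM in every genotype mean, and of Sod1 (-1.28, FDR = 0.00106), the cytosolic superoxide dismutase. Sod1 averaged 908 ± 94.6 (SD) normalized CPM in cont. mice, 373 ± 10.6 in Atg7-KO mice and 1329 ± 291 with the knock-in. Of the peroxiredoxins outside the members, mitochondrial Prdx3 rose (1.26, FDR = 0.0117), while Prdx2 had -0.26 (FDR = 0.354) and Prdx4 -0.51 (FDR = 0.0857). These peroxiredoxins were picked out after their values were seen. In Atg7-KO;p62T352A against Atg7-KO mice, 5 of the 13 were higher and 5 lower, against 24.7% and 26.2% of all genes. Against cont. mice 2 were lower, Sesn1 and Sesn2, with 5.34% of all genes called lower. Of these, Sesn1 was likewise named after its values were seen.

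Of 9 genes of glutathione reductase, glutaredoxins and methionine sulfoxide reductases, 3 rose from cont. to Atg7-KO, against 21.6% of all genes. Gsr, which regenerates the glutathione used by the peroxidases, rose most (2.13, FDR = 0.000144), from 64.5 ± 20.5 (SD) to 283 ± 23.4 normalized CPM, and stood at 102 ± 8.79 in Atg7-KO;p62T352A mice. The methionine sulfoxide reductase Msrb3 rose by 1.17 (FDR = 0.00325).

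The other selenoproteins moved in both directions. Of 16 tested, 2 rose and 4 fell from cont. to Atg7-KO, against 21.6% and 22.1% of all genes, with a median log2 fold change of -0.34. The rises numbered 4 without cont. mouse 1. Sepn1, selenoprotein N of the endoplasmic reticulum, rose by 1.98 (FDR = 0.000223) and 2700094K13Rik (selenoprotein H) by 1.27. Selo, a mitochondrial selenoprotein, had -1.72 (FDR = 0.000167) and the thyroid hormone deiodinase Dio1 -1.55 (FDR = 0.000278), both called. Of 11 genes of selenocysteine synthesis and selenium supply, 1 was higher and 5 were lower, against the same shares of all genes. Sepsecs, which makes selenocysteine on its tRNA, fell by 1.40 and Secisbp2, which guides it to the TGA codon, by 1.24. The gene called higher was Lrp8, a selenoprotein P receptor, with 2, 1 and 3 raw counts in cont. mice, 84, 119 and 130 in Atg7-KO mice and 2, 2 and 6 in Atg7-KO;p62T352A mice. Its size of change is not given, since the control counts are near 0, and it was not fitted where at least 10 counts in every mouse were required. Secisbp2 rose by 1.19 in Atg7-KO;p62T352A against Atg7-KO mice, whereas Sepsecs fell by a further 0.78 (FDR = 0.0424). The number of genes of this list called lower in that comparison was 2. It was 1 with a replicate block, with glmTreat and in 4 of the fits with a mouse left out. Measured against cont. mice, the knock-in genotype had 1 gene of this list called lower, Sepsecs (-2.18, FDR = 0.00583). Txnrd2, Txnrd3, Msrb1 and Sephs2 are each in more than 1 of these lists, and hepatocyte markers were lower in the same Atg7-KO mice, with 6 of 8 called. The part of the hepatocyte share in these falls was not tested.

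**Figure D4:**
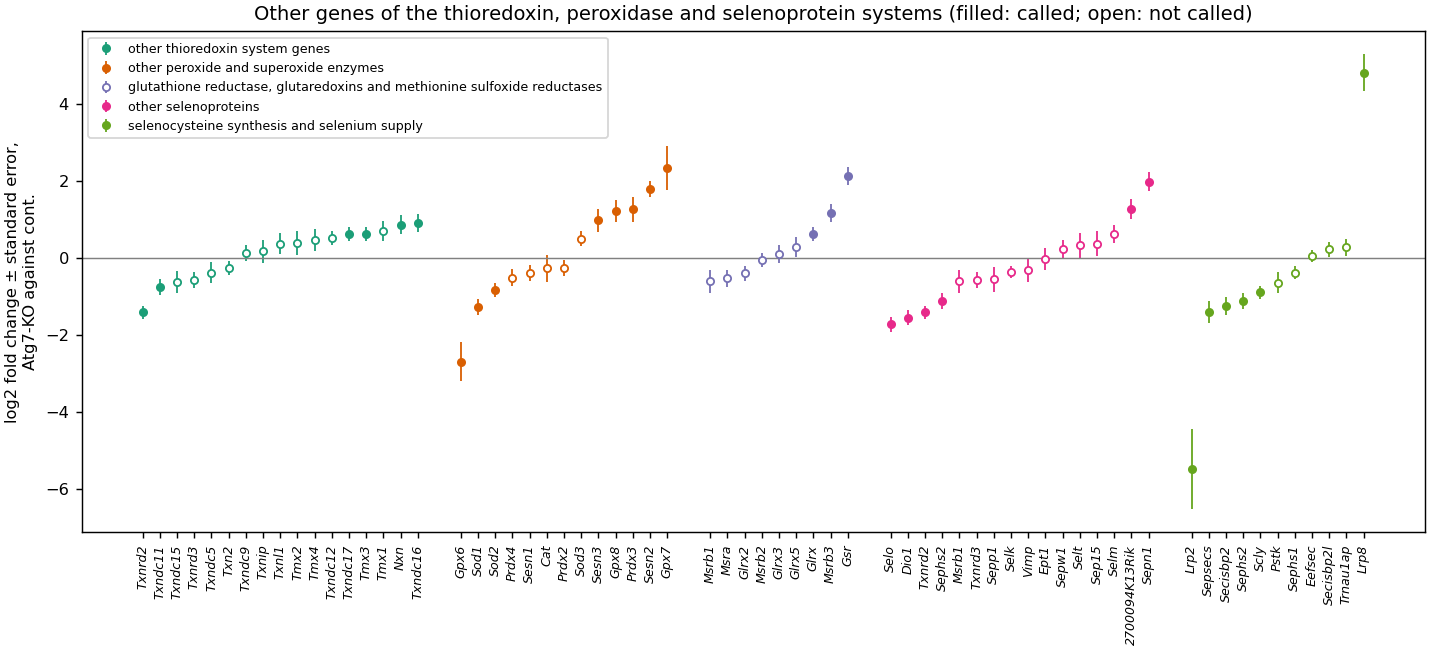
Log2 fold change ± standard error in Atg7-KO against cont. mice of the tested genes of 5 lists of the same systems, without the members, with called genes filled. Rises and falls stand side by side within most lists, with Gsr at 2.13 and Sepn1 at 1.98 among the rises and Txnrd2 at -1.41 and Sod1 at -1.28 among the falls. The outermost points, Lrp8 and Lrp2, come from genes with few counts in some genotypes.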

How the data were processed

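The deposited table holds expected counts per gene for 9 mouse livers, which the authors made with Trim Galore, STAR and RSEM from 75-base single-end reads mapped to mm10. Tool versions, annotation and strand setting are not given in the sources used here, so reads of overlapping antisense genes could be mixed. Expected counts were rounded. Columns were assigned through the genotype and mouse number in the labels, which also name 3 p62T352A mice, not analysed here.

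Computations used edgeR 4.0.16, limma 3.58.1 and DESeq2 1.42.0 under R 4.3.3, and Python 3.11.15 with matplotlib 3.10.9. Genes were kept by filterByExpr and scaled by TMM, and the 3 genotypes were fitted in 1 edgeR quasi-likelihood model, checked on simulated counts. Calls needed FDR under 0.05 and a fold change over 1.5. Normalized CPM are scaled by TMM, log2 CPM use a prior count of 2, and intervals of log2 fold changes are 95%. Levels per kilobase use the transcript with the longest coding sequence in GENCODE vM21, and the longest such transcript in a tie. For Gpx2, ratios of summed counts carry exact intervals for counting error only. Mice of a genotype are separate animals, and their libraries differed beyond sampling noise.

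The members and lists were chosen with earlier results of these data known. Named were the members, from each list the 2 largest rises and 2 largest falls called in Atg7-KO against cont. at a mean of at least 1 CPM, and for likeness the 3 most correlated genes. Alternatives were DESeq2, its size factors in edgeR, upper-quartile scaling, TMM without the 20 genes with the most counts, other filters on low counts, FDR alone, glmTreat, a replicate block, a term for the mice numbered 1, the mice numbered 2 and 3 alone, and each mouse left out in turn.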

Additional observations from a re-analysis of the deposited data

How the results depend on the processing

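At least 5 members were higher in Atg7-KO than in control mice in every alternative that fitted Gpx2, and 4 where at least 10 counts in every mouse were required, which leaves Gpx2 out. The number of members called higher with Atg7-KO;p62T352A than in cont. went from 3 to 1 with a replicate block and to 0 with glmTreat. It was 2 with DESeq2 size factors in edgeR, with upper-quartile scaling and with no filter, and ran from 0 to 4 with mice left out. The number lower in Atg7-KO;p62T352A than in Atg7-KO mice ran from 4 to 6.

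Uncalled values near 0 changed sign. For Atg7-KO;p62T352A against cont., Txnrd1 was -0.023 with DESeq2, -0.021 with its size factors and -0.12 to 0.25 with mice left out. Prdx1 and Gpx1 were 0.39 and 0.27 with the mice numbered 2 and 3 alone, and with mice left out they ran from -0.63 to 0.22 and from -0.79 to 0.10, and Prdx5 from -0.0080 to 0.46. Gpx1 ran from -0.44 to 0.45 against Atg7-KO, and Prdx6 from -0.15 to 0.16 in Atg7-KO against cont.

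Deviations of same-numbered mice correlated from -0.20 to 0.32, with 6 of 9 pairs over 0.1, namely all pairs of the mice numbered 1 and of those numbered 3. Pairing was taken only where all 9 pairs passed 0.1, so the block stayed an alternative; 5 of 9 mice correlated best with their own number. Upper-quartile scaling moved the median of all genes from -0.03 to 0.08 in Atg7-KO against cont. and from 0.0021 to -0.13 in Atg7-KO;p62T352A against Atg7-KO. Gpx2, at 0 to 3 counts per mouse outside Atg7-KO, allows no comparison of those genotypes.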
